A study of Homo sapiens with 14 samples.

Results

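The Eph receptors and ephrins measured here are 10 genes: the receptors EPHA1, EPHA2, EPHA4, EPHB2, EPHB3, EPHB4 and EPHB6, and the ligands EFNA1, EFNB1 and EFNB2. They were taken by symbol from 2 tables of human prostate cancer cells, where all 10 were found, 1 row each, among 24199 genes measured in DU145 cells and 44591 measured in LNCaP cells. The study asked how the transcription factor PAX6 and long exposure to the androgen receptor antagonist enzalutamide (ENZ) relate to a neuroendocrine phenotype. DU145 is a line that lacks androgen receptor signaling. In it, 3 libraries of cells with a control hairpin (shCON) were compared with 3 libraries of cells with a hairpin against PAX6 (shPAX6). These were stable lentiviral lines, and no source used here says which PAX6 hairpin was sequenced or whether the 3 libraries of a group came from separate cultures, so a p-value measures the spread between these libraries, which may be technical. LNCaP is an androgen-responsive line, and 1 library of parental cells was set beside 1 library of LNCaP-ENZ cells, an enzalutamide-resistant derivative kept in 20 µM enzalutamide, for 30 days by the text of the series. The parental LNCaP and shCON cells are labelled wild type.

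Eph receptors are the largest family of receptor tyrosine kinases, and ephrins are their ligands. Both are held in the plasma membrane, so that signaling needs contact between cells. It runs forward into the cell with the receptor and in reverse into the cell with the ligand. Ephrin-A ligands are tied to the membrane by a lipid anchor and mostly bind EphA receptors, while ephrin-B ligands cross the membrane and mostly bind EphB receptors. EphA4 binds both kinds. The family is known for repulsion and sorting of cells, for guidance of axons and, through EphB4 and ephrin-B2, for separation of arteries from veins. In epithelial cancers EphA2 is often abundant and can signal without ligand.

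Of the 10 genes, EPHB3 and EPHB4 in DU145 and EFNB2 in LNCaP have their differences described first below. These genes were picked from these data, and in DU145 EPHB6 and EFNB1 had greater log2 differences than EPHB4. The promoters of the 3 are shown. Each is 300 bases from RefSeq on GRCh38.p14, 250 before and 50 after the start of the gene, read 5′ to 3′ on the strand of the gene. Capitals mark the GC box, GGGCGG or CCGCCC on the other strand. The windows lie at chr3:184561535-184561834 on the plus strand for EPHB3, chr7:100827474-100827773 on the minus strand for EPHB4 and chr13:106535613-106535912 on the minus strand for EFNB2.
EPHB3: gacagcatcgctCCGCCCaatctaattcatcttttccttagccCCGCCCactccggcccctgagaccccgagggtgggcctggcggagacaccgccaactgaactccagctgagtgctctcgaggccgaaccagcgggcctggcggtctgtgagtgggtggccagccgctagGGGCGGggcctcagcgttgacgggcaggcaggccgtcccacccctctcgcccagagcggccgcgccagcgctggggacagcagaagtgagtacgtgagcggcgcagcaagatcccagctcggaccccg
EPHB4: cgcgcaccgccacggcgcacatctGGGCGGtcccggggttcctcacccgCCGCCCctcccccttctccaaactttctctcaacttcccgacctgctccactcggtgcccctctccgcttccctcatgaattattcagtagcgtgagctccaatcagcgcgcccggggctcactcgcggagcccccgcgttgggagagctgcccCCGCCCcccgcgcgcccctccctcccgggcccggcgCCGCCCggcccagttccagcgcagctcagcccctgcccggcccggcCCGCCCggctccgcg
EFNB2: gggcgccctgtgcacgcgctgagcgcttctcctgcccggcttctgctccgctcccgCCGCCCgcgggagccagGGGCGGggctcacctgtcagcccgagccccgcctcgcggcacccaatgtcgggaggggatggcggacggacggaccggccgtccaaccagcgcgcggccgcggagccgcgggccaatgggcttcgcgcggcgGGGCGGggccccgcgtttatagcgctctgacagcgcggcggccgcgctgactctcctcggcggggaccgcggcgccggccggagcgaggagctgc
The GC box occurred 3 times in the EPHB3 window, 5 times in EPHB4 and 3 times in EFNB2. All 10 genes matched the promoter table and had a GC box in at least 1 window, a motif that was present in 45% of 35116 human promoter windows of this length. GC content was 69.0% for EPHB3, 74.3% for EPHB4 and 78.7% for EFNB2. EPHB6 had 48% and only 3 CpG sites, against 49 CpG sites in EFNB2. A TATAAA motif on either strand, found in 11.5% of all windows, was present in EFNB2 only among the 10 genes. The EPHB6 window was also the only one of the 10 with AGAACA, a half-site of the androgen receptor motif, on either strand, which 14.8% of all windows had. None of the 10 had the E-box CACGTG, which 7.26% of all windows had. The measurements below are RNA levels, so these matches describe the sequences and nothing more.

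The targeted gene was measured first. PAX6 was 0.839, 1.23 and 1.57 FPKM (fragments per kilobase of transcript, scaled to library size) in shCON libraries 1 to 3, and 0.0153, 0.274 and 0.0778 FPKM in shPAX6 libraries 1 to 3. All 3 shPAX6 libraries lay below all 3 shCON libraries, with a log2 fold change of -2.69 ± 0.49 (SE) and an adjusted p = 0.054 (limma). LNCaP cells gave PAX6 11 counts (parental) and 4 counts (LNCaP-ENZ), too few to give a direction. Summed FPKM per library ranged from 470857 to 485479 in shCON and from 448901 to 570790 in shPAX6, the highest being shPAX6 library 1, and Spearman's correlation between DU145 libraries ranged from 0.934 to 0.990. The LNCaP libraries held 20468001 and 17945722 counts. A list of 6 markers of androgen-responsive luminal cells summed to 560 TPM in parental and 420 TPM in LNCaP-ENZ cells, but to 5.80 to 9.77 FPKM in DU145. All 4 epithelial markers were above 0 in all 8 libraries, but they moved unequally with the knockdown. CDH1 (E-cadherin) had 6.27, 5.24 and 6.91 FPKM in shCON and 0.654, 1.56 and 1.57 FPKM in shPAX6 libraries 1 to 3, and fell by 2.28 on the log2 scale (adjusted p = 0.033, limma). EPCAM was at a log2 fold change of -0.75 (adjusted p = 0.054), KRT8 at -0.28 (adjusted p = 0.47) and KRT18 at 0.07 (adjusted p = 0.90, limma). Of 4 markers high in DU145, VIM was at 0.56, CAV1 at 0.55, CD44 at 0.26 and AXL at -0.49, with adjusted p of 0.14, 0.098, 0.64 and 0.28 (limma). Their summed 1324 to 1429 FPKM in shCON and 1739 to 1965 FPKM in shPAX6 was mostly VIM. The part of these markers in the results below was not tested. In any library, in FPKM or TPM, leukocyte markers summed to at most 1.12 and endothelial markers to at most 2.03. Fibroblast markers reached 0.771 FPKM in DU145, and 4.25 TPM in parental and 2.68 TPM in LNCaP-ENZ cells, mostly COL1A1 with 456 and 231 counts, while COL1A2, DCN and LUM had 0 counts.

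Which of these genes a cell line expressed differed greatly between the lines. In DU145 shCON cells EPHA2 was the most abundant of the 10, at 90.4 ± 3.85 FPKM (SD, n = 3). EPHB4 followed at 29.9 ± 2.41 FPKM and EFNA1, the ligand of EphA2, at 28.7 FPKM, and the ranges of these last 2 overlapped. EFNB1 stood at 3.41 FPKM, clear of its neighbours on both sides. EPHB2 and EPHB6 came next, at 1.21 and 0.718 FPKM, and their ranges overlapped. EPHB3 lay at 0.567 FPKM, and EFNB2, EPHA4 and EPHA1 at 0.309, 0.301 and 0.130 FPKM. Of these low genes, EFNB2 and EPHA4 overlapped in range, while EPHA1 was just below EPHA4. After PAX6 knockdown EPHA2 still led, EFNA1 and EPHB4 still overlapped, and EPHB6 had moved below EPHB3, EFNB2 and EPHA4 by mean.

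In parental LNCaP cells EFNA1 was the most abundant, at 50.4 TPM (counts over gene length, scaled to a fixed total), followed by EPHB4 at 17.4 TPM. EFNB1 and EPHA2 were at 7.72 and 6.21 TPM, and EPHA1 and EPHB3 at 5.47 and 4.17 TPM. EPHB2 stood at 2.58, EFNB2 at 1.50 and EPHB6 at 0.603 TPM. EPHA4 was counted 2 times in the parental library and 0 times in the other, under the limit of 3 counts (0.147 and 0.167 CPM, counts scaled to library size), so no change in it could be measured. With 1 library per arm these levels have no replicate check.

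The 2 tables were made separately and in different units, so the lines were compared by percentile within each library, over the 18808 symbols found once in both. EPHA2 lay at the 95.3 percentile in shCON (mean of 3 libraries) and at the 65.3 percentile in parental LNCaP. EPHA1, an epithelial receptor of the same class, went the other way, with 30.6 in shCON and 63.0 in LNCaP. EPHB3 was at 38.3 and 58.3, and EFNB1 at 54.3 and 69.3. EPHB4 differed little, at 85.6 and 83.3, and EFNA1 was at 85.2 and 94.7. This is a description of a pair of lines from separate tables and was not tested.

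**Figure D1:**
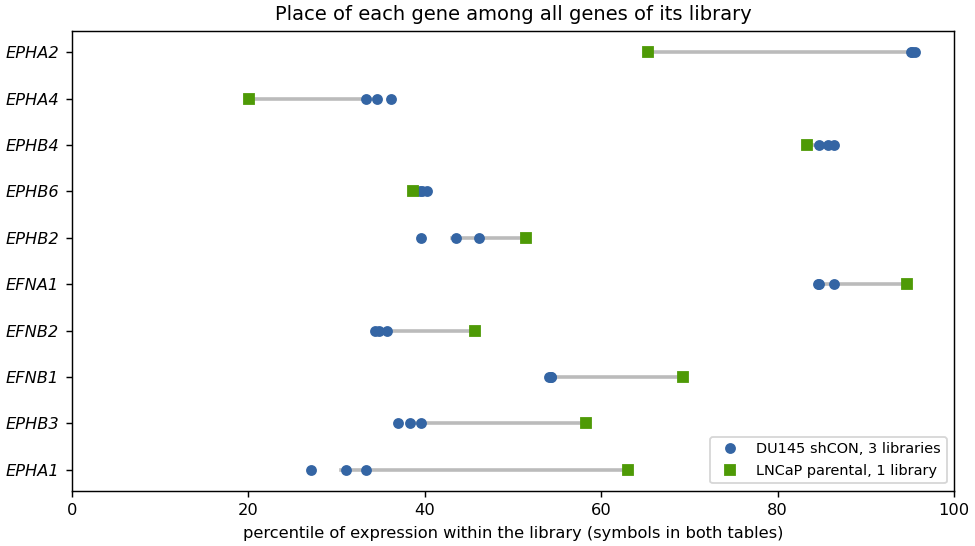
Percentile of each gene among the symbols shared by both tables (horizontal axis, 0 to 100), with blue circles for the 3 DU145 shCON libraries, green squares for the single parental LNCaP library and grey bars joining the shCON mean to LNCaP. EPHA2 is farther right in DU145 (95.3 against 65.3), EPHA1 farther right in LNCaP (63.0 against 30.6), and EPHB4 is nearly level.

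The make-up of the whole family, 14 receptors and 8 ligands, placed the 10 genes in context. EPHA2 alone made up 70.6% to 72.1% of the summed receptor FPKM in shCON and 72.6% to 79.8% in shPAX6, so the groups did not overlap, although EPHA2 itself did. EPHB4 made up 22.9% to 24.2% in shCON and 15.4% to 21.7% in shPAX6. In LNCaP, EPHA2 was 11.8% of the receptor TPM in parental and 10.3% in LNCaP-ENZ cells, and EPHB4 was 33% and 43%. Ligands summed to less than receptors in all 6 DU145 libraries, at 0.490 to 0.527 times in shCON and 0.364 to 0.669 times in shPAX6. In LNCaP the balance was the other way, with ligands at 3.91 times the receptors in parental and 5.06 times in LNCaP-ENZ cells. The 10 genes together made up 73.7% to 84.9% of the family's level in DU145 but 37.2% and 33.2% in LNCaP. The rest in LNCaP was largely EFNA3, EFNA4, EFNA5 and EPHA6. EPHA6 was listed at 0 in every DU145 library, and was the leading EphA receptor of parental LNCaP cells at 12.7 TPM.

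**Figure D2:**
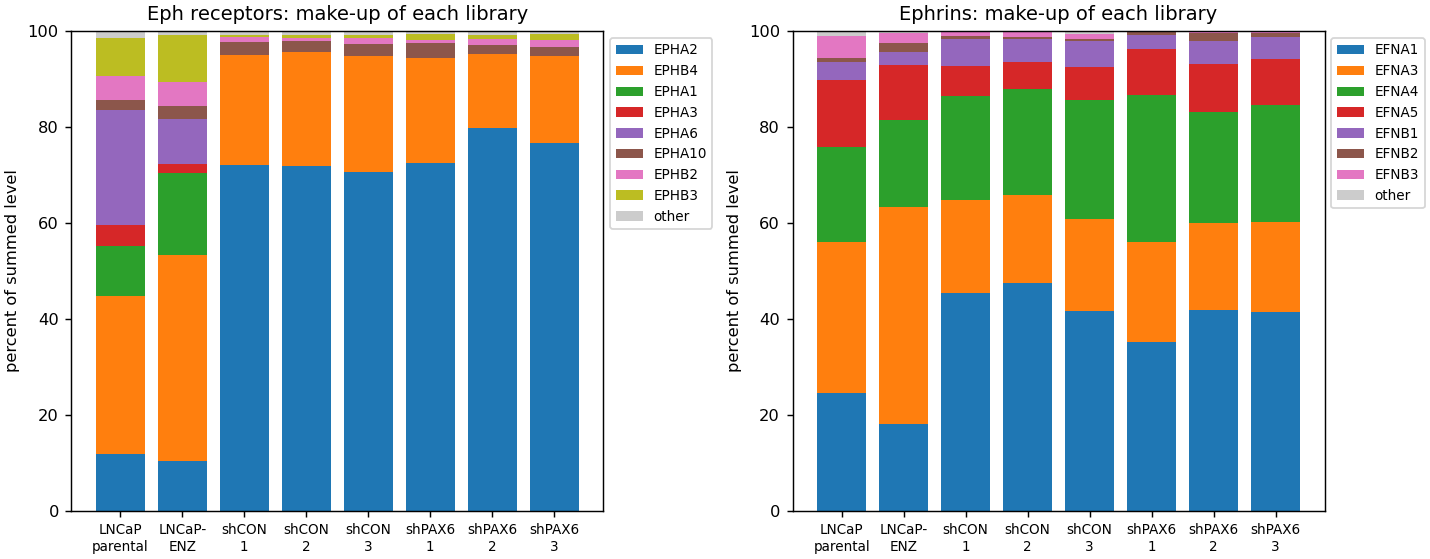
Percent of the summed level of all 14 Eph receptors (left) and all 8 ephrins (right) in each of the 8 libraries, TPM for LNCaP and FPKM for DU145, with colours for genes. EPHA2 fills 70.6% or more of each DU145 receptor bar and 11.8% or less of each LNCaP bar, where EPHA6, EPHA1 and EPHB3 appear.

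None of the Eph or ephrin genes passed the threshold after PAX6 knockdown in DU145. Of the 10 genes, 6 averaged at least 0.5 FPKM over the 6 libraries and were tested, and 0 of the 6 had an adjusted p under 0.05 (limma, adjusted over all 13574 features tested), where 1.20% of all features did. At an unadjusted p under 0.05 there were 4 of 6, EPHB3 higher and EPHB4, EFNA1 and EFNB1 lower, where 18.3% of all features were. With GC corrected only EPHB3 kept an unadjusted p under 0.05, and EPHB4, EFNA1 and EFNB1 had unadjusted p of 0.157, 0.159 and 0.179 (limma). With library medians aligned EPHB3 and EFNB1 kept it, while EPHB4 and EFNA1 had 0.053 and 0.179 (limma). These 4 were also the tested members whose shCON and shPAX6 libraries did not overlap. Among all features, 20.0% were apart and lower in shPAX6 and 6.70% apart and higher. The median log2 fold change was -0.26 over the 6 genes and -0.12 over all tested features. Aligning the library medians turned the median of all features to 0.06, with 1834 features apart and higher and 1663 apart and lower. The directions of the tested genes below were checked under it. As these are bulk libraries, less RNA per cell and fewer cells with the RNA cannot be told apart.

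EPHB3, a receptor of ephrin-B ligands known in the sorting of intestinal epithelial cells, had the greatest log2 difference of the 6 tested genes. Its FPKM was 0.452, 0.660 and 0.588 in shCON libraries 1 to 3 and 1.07, 1.13 and 1.66 in shPAX6 libraries 1 to 3. Every shPAX6 library lay above every shCON library, though all 6 values were low. The means were 0.567 ± 0.11 and 1.28 ± 0.33 FPKM (SD, n = 3 each), a ratio of 2.27. The log2 fold change was 1.04 ± 0.29 (SE), with a 95% interval of 0.37 to 1.71 and an adjusted p = 0.12 (limma). An exact two-sided permutation test gave p = 0.10, the smallest that 3 against 3 allows. Across genes, log2 fold changes were lower at higher GC content of the transcript (Spearman's correlation = -0.36 over 12009 genes), and the EPHB3 transcript has 62.2% GC. With GC corrected in each library, the EPHB3 log2 fold change was 1.40 and its adjusted p = 0.043 (limma). The gene spans chr3:184279587-184300196 on the plus strand (GRCh37), and no other annotated gene overlaps it.

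EPHB4, the receptor of ephrin-B2 and the leading EphB receptor in every library, was lower in shPAX6. Its FPKM was 27.4, 30.0 and 32.2 in shCON libraries 1 to 3, and 18.5, 20.5 and 22.9 in shPAX6 libraries 1 to 3. The lowest shCON value was above the highest shPAX6 value. The log2 fold change was -0.54 ± 0.14 (SE), with a 95% interval of -0.86 to -0.21 and an adjusted p = 0.11 (limma). It was -0.36 with library medians aligned and -0.19 with GC corrected. EPHB4 lies at chr7:100400187-100425143 on the minus strand (GRCh37), where 704 bases overlap SLC12A9 on the opposite strand. Whether counting used strand is not given in the sources used here, so reads in the overlap cannot be assigned to either gene.

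EPHB6, a receptor without kinase activity, varied least of the family between the shCON libraries, relative to its mean. It had 0.709, 0.734 and 0.710 FPKM in shCON libraries 1 to 3 and 0.275, 0.203 and 0.302 FPKM in shPAX6 libraries 1 to 3. The groups were far apart, but the mean of 0.489 FPKM left EPHB6 just under the level for testing. It therefore has no value with GC corrected or with library medians aligned. Its log2 difference was -1.19, and an exact two-sided permutation test gave p = 0.10, the smallest possible. Without the filter on low values it had an adjusted p = 0.11 (limma). EPHB2, a receptor known in axon guidance, gave no direction. It had 1.23, 0.667 and 1.73 FPKM in shCON libraries 1 to 3 and 0.652, 1.63 and 1.70 FPKM in shPAX6 libraries 1 to 3. The log2 fold change was 0.11, with a 95% interval of -0.96 to 1.17 and an adjusted p = 0.94 (limma).

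EPHA2, the dominant receptor of DU145 cells, did not move in a common direction. Its FPKM was 86.5, 90.6 and 94.2 in shCON libraries 1 to 3, and 61.8, 105.8 and 97.1 in shPAX6 libraries 1 to 3. One shPAX6 library was below all shCON libraries and the other 2 were above them. The log2 fold change was -0.07 ± 0.21 (SE), with a 95% interval of -0.56 to 0.41 and an adjusted p = 0.90 (limma). Without shPAX6 library 1 it was 0.17 (adjusted p = 0.37, limma), and it was also above 0 with library medians aligned (0.10) and with GC corrected (0.27). EPHA4 had 0.213, 0.274 and 0.416 FPKM in shCON libraries 1 to 3 and 0.157, 0.883 and 0.477 FPKM in shPAX6 libraries 1 to 3, with wide overlap. EPHA1 was lower still, at 0.211, 0.0440 and 0.134 FPKM in shCON and 0.0586, 0.0797 and 0 FPKM in shPAX6, also overlapping. Both were under the level for testing.

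**Figure D3:**
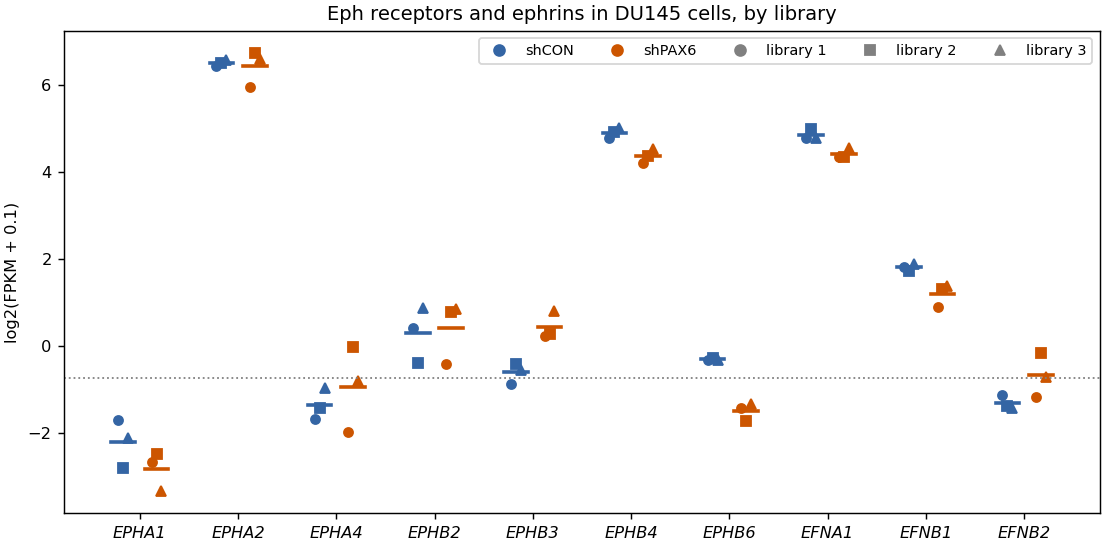
log2(FPKM + 0.1) of the 10 genes (vertical axis) in 3 shCON (blue) and 3 shPAX6 (orange) libraries of DU145, with the marker shape for the library number, short bars for group means and a dotted line at 0.5 FPKM, where the mean over all 6 libraries allowed testing. EPHB3 is higher and EPHB4, EPHB6, EFNA1 and EFNB1 are lower in all 3 shPAX6 libraries, while the EPHA2 groups overlap.

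Among the ligands, EFNA1, the main ligand of EphA2, was lower in shPAX6. It had 27.5, 31.5 and 27.2 FPKM in shCON libraries 1 to 3 and 20.0, 20.2 and 23.2 FPKM in shPAX6 libraries 1 to 3. The groups did not overlap, and the log2 fold change was -0.44 ± 0.13 (SE), with a 95% interval of -0.75 to -0.13 and an adjusted p = 0.15 (limma). With library medians aligned it was -0.27 and with GC corrected -0.18, and in both the groups overlapped. EFNB1, a ligand of EphB receptors encoded on the X chromosome, had 3.41, 3.21 and 3.61 FPKM in shCON libraries 1 to 3 and 1.77, 2.39 and 2.49 FPKM in shPAX6 libraries 1 to 3. The groups were apart, and the log2 fold change was -0.61 ± 0.21 (SE), with a 95% interval of -1.11 to -0.12 and an adjusted p = 0.19 (limma). With GC corrected it was -0.28 and the groups overlapped. EFNB2, the ligand of EphB4, had 0.362, 0.287 and 0.276 FPKM in shCON libraries 1 to 3 and 0.346, 0.805 and 0.517 FPKM in shPAX6 libraries 1 to 3. Of the 3 shPAX6 values, 2 were above all shCON values and 1 was within their range. The mean was under the level for testing, and an exact two-sided permutation test gave p = 0.20.

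**Figure D4:**
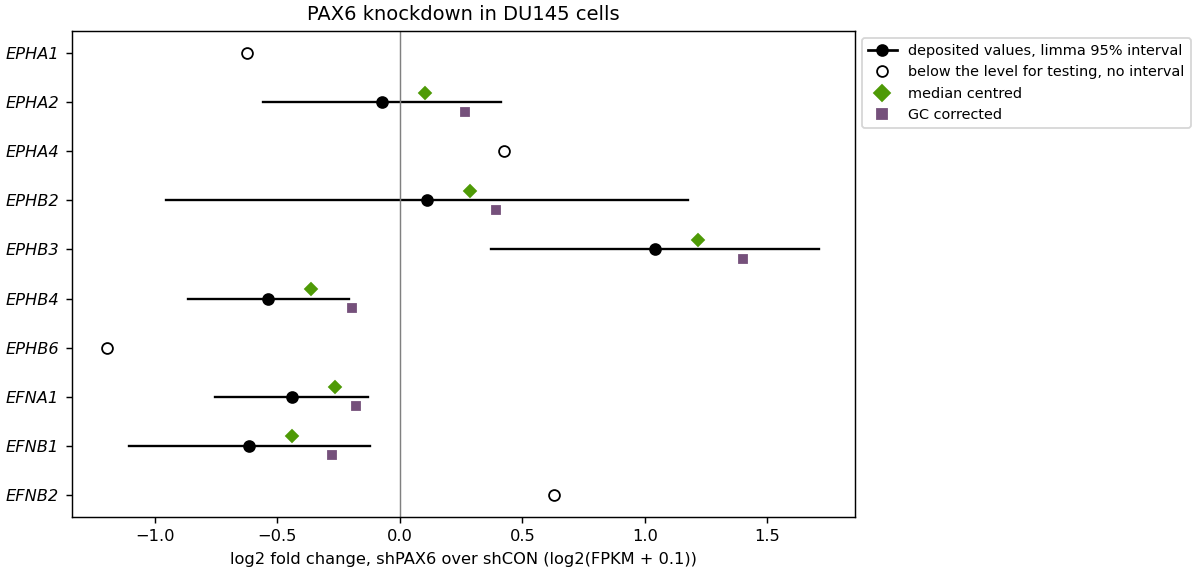
log2 fold change of shPAX6 over shCON on the log2(FPKM + 0.1) scale (horizontal axis) for each gene, with filled circles and bars for the estimate and its 95% limma interval, open circles for genes below the level for testing, green diamonds with library medians aligned and purple squares with GC corrected. EPHB3 stays above 0 and EPHB4, EFNA1 and EFNB1 stay below 0 in all of them, while EPHA2 changes side.

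The other 12 Eph and ephrin genes held 4 that could be tested, and 0 of 4 passed (limma), with 0 at an unadjusted p under 0.05. EFNA5, an ephrin-A ligand known in axon guidance, had 3.82, 3.77 and 4.45 FPKM in shCON libraries 1 to 3 and 5.41, 4.77 and 5.42 FPKM in shPAX6 libraries 1 to 3. The groups were apart, with a log2 fold change of 0.37 and an adjusted p = 0.31 (limma). EPHA10, a receptor without kinase activity, was apart and lower, with a log2 fold change of -0.33 and an adjusted p = 0.39 (limma). Its groups overlapped with library medians aligned (-0.16) and with GC corrected, where it turned to 0.04. EFNA3 and EFNA4 overlapped, with log2 fold changes of -0.25 and -0.07, which turned to 0.11 and 0.25 with GC corrected. EFNB3, whose mean of 0.341 FPKM left it untested, had 0.542, 0.577 and 0.663 FPKM in shCON and 0.0460, 0.151 and 0.0653 FPKM in shPAX6 libraries 1 to 3. Its groups were apart, and without the filter its adjusted p was 0.062 (limma). Like EPHB6, EFNB3 has no value with GC corrected or with library medians aligned. EPHA3, EPHA5, EPHA6, EPHA7 and EPHA8 were listed at 0 in all 6 libraries, and EPHB1 and EFNA2 were at or below 0.382 FPKM.

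In LNCaP-ENZ cells EFNB2 stood out from the other genes. It was counted 129 times in the parental library and 347 times in LNCaP-ENZ, at 1.50 and 4.33 TPM. The log2 ratio was 1.60, with a 95% interval of 1.32 to 1.92 that covers counting error only, and it stayed between 1.47 and 1.77 in every other setting tried. Endothelial cells are rich in EFNB2, and the 5 endothelial markers moved unequally. VWF had 345 and 27 counts, KDR 0 and 16, PECAM1 3 and 3, and CDH5 and TEK 0 in both, and their part in the EFNB2 difference was not tested. EFNB2 lies at chr13:107142079-107187388 on the minus strand (GRCh37). A long noncoding RNA is annotated on the opposite strand over 30484 bases of it, and another on the same strand over 668 bases. EPHB6 was on the other side, with 48 and 18 counts, 0.603 and 0.243 TPM, and a log2 ratio of -1.15 (95% interval -2.09 to -0.42). Of the 9 genes with a mean of at least 1 CPM, EFNB2 was thus the 1 at least 2-fold higher, where 1.84% of all 14767 such genes were. EPHB6 was the 1 at least 2-fold lower, where 9.57% of all were. With DESeq2 size factors EPHB6 was less than 2-fold lower. There is 1 library per arm, so none of this could be tested.

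The other receptors and ligands differed less. EPHA1 had 361 and 464 counts, 5.47 and 7.56 TPM, and a log2 ratio of 0.55 (95% interval 0.35 to 0.75), which placed it above EFNB1 and EPHA2 in LNCaP-ENZ cells. EPHA1 overlaps ZYX by 823 bases and the noncoding EPHA1-AS1 by 1073 bases, both on the opposite strand. The median log2 ratio of all 14767 genes was -0.15, and scaling by TMM (trimmed mean of M-values) factors moved genes up by 0.15, and less at the lowest counts, so small ratios are given with that in mind. EPHB4, with 1483 and 1497 counts, was at 0.20 (95% interval 0.10 to 0.31), and EPHB3, with 345 and 331 counts, at 0.13 (95% interval -0.09 to 0.35). EPHA2, with 485 and 329 counts, was at -0.37 (95% interval -0.58 to -0.17). EFNA1, with 1548 and 1147 counts, was at -0.24, EFNB1, with 504 and 372 counts, at -0.25, and EPHB2, with 559 and 449 counts, at -0.13. These 3 lay within 0.1 of the median of all genes, and EPHB2 was above 0 in 3 of 9 other settings. The median over the 9 genes was -0.13.

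**Figure D5:**
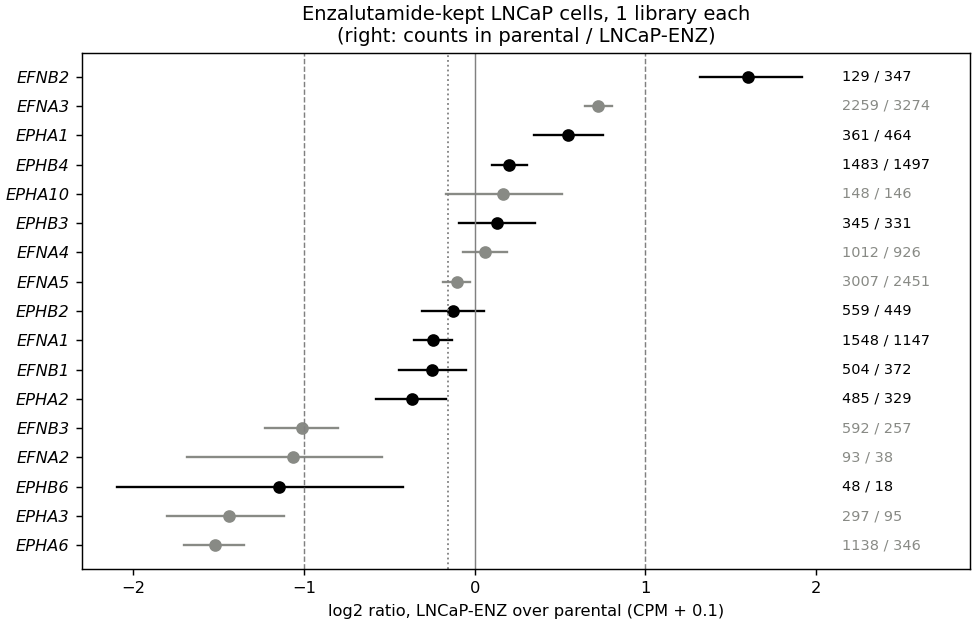
log2 ratio of LNCaP-ENZ over parental LNCaP (CPM + 0.1, horizontal axis) for Eph and ephrin genes with a mean of at least 1 CPM, black for the 10 genes of interest and grey for the rest, with 95% counting intervals as bars and both counts at the right. Dashed lines mark a 2-fold difference and the dotted line the median of all genes at -0.15, and EFNB2 is the highest at 1.60 while EPHA6 is the lowest at -1.52.

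Among the rest of the family in LNCaP, 8 genes had a mean of at least 1 CPM, of which 0 were at least 2-fold higher and 4 at least 2-fold lower, where 1.84% and 9.57% of all genes were. EPHA6 had 1138 and 346 counts, with a log2 ratio of -1.52 (95% interval -1.71 to -1.35). The log2 ratio of EPHA3, a receptor of ephrin-A5, was -1.44 (297 and 95 counts). It was -1.01 for EFNB3 (592 and 257 counts) and -1.07 for EFNA2 (93 and 38 counts). With TMM factors EFNB3 and EFNA2 were at -0.86 and -0.92, and with DESeq2 size factors at -0.84 and -0.90, less than 2-fold lower. EPHA6 led the EphA receptors in parental cells, while EPHA1 led in LNCaP-ENZ cells with 41.5% of their sum. EFNA3 was higher, at 0.72 (2259 and 3274 counts). EFNA4, EFNA5 and EPHA10 were at 0.06, -0.11 and 0.17. EPHA5, EPHA7, EPHA8 and EPHB1 had at most 7 counts in either library.

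Genes that carry or limit the signal were counted over a list of 47: exchange factors and cytoskeletal effectors, adaptors, kinases and phosphatases, partners of ephrin-B in reverse signaling, and proteases that shed receptors or ligands. In DU145, 41 were tested and 0 of 41 had an adjusted p under 0.05 (limma), where 1.20% of all features did. At an unadjusted p under 0.05 there were 13 of 41 (limma), where 18.3% of all features were. Of the 13, 1 was higher and 12 lower. With GC corrected SRC, VAV2, ARHGEF19, ARHGEF16, DVL2, GRB2, INPPL1 and GIT1 had unadjusted p from 0.087 to 0.94 (limma). MMP14, RHBDL2, GRB10 and the higher FYN kept an unadjusted p under 0.05 with GC corrected (limma). With library medians aligned, ARHGEF16, ARHGEF19, GRB2, INPPL1 and GIT1 had unadjusted p from 0.063 to 0.23, and the rest of the 13 stayed under 0.05 (limma). Of the 41, 3 were apart and higher and 15 apart and lower, where 6.70% and 20.0% of all features were. The median log2 fold change was -0.26, against -0.12 over all tested features. The greatest lower differences were RHBDL2, a rhomboid protease, at -1.31 (adjusted p = 0.10, limma), MMP14, a membrane-type metalloprotease that can cleave EphA2, at -0.89 (adjusted p = 0.054, limma), and TIAM1, an exchange factor for Rac, at -0.84 (adjusted p = 0.35, limma). The TIAM1 groups overlapped, and it was -0.40 without shPAX6 library 1 and -1.29 without library 2 (adjusted p = 0.41 and 0.046, limma). MMP14 had 40.7, 41.5 and 45.8 FPKM in shCON libraries 1 to 3 and 18.7, 25.6 and 25.4 FPKM in shPAX6 libraries 1 to 3. It passed the threshold without shPAX6 library 1 or 2 (adjusted p = 0.012 and 0.022), with a pseudocount of 1 (0.048) and with quantile normalization (0.038, limma). It did not pass in the other alternatives, where the adjusted p went from 0.055 to 0.33 (limma). The greatest higher differences were FYN, a Src family kinase, at 0.61 (adjusted p = 0.19, limma), CHN1, a Rac GTPase-activating protein downstream of EphA4, at 0.31 (adjusted p = 0.40, limma), and TJP1, a scaffold of tight junctions, at 0.23 (adjusted p = 0.74, limma). The TJP1 groups overlapped, and it was 0.52 without shPAX6 library 1 and -0.10 without library 2. The FYN groups were apart, at 1.48, 1.60 and 1.82 FPKM in shCON and 2.43, 2.40 and 2.79 FPKM in shPAX6.

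In LNCaP, 39 of the 47 had a mean of at least 1 CPM. Of these 0 were at least 2-fold higher and 9 at least 2-fold lower, where 1.84% and 9.57% of all genes were. The median log2 ratio was -0.33, against -0.15 over all genes. The lowest were FYN, at -2.35 (55 and 8 counts), and SH2D3C, an adaptor, at -1.88 (56 and 12 counts), both with few counts. Both reached a mean of 1 CPM only through the parental library. FYN had 2.69 CPM there and 0.446 in LNCaP-ENZ, and SH2D3C had 2.74 and 0.669 CPM. FYN was on the other side in DU145. Among those with a mean of at least 5 CPM the lowest were YES1, a Src family kinase, at -1.51 (934 and 286 counts), and PTPN13, a phosphatase that binds ephrin-B, at -1.38 (447 and 150 counts). ADAM10, the protease that sheds ephrin-A ligands, followed at -1.17 (1785 and 694 counts). The highest was GRB10, an adaptor that binds Eph receptors, at 0.65 (8319 and 11452 counts). VAV2, an exchange factor, and PICK1, a scaffold that binds ephrin-B, were at 0.17 and 0.16. The count of 9 lower genes depended on scaling. With TMM factors ITSN1 (-0.89), ROCK1 (-0.97), NCK1 (-0.997) and TJP1 (-0.91) were less than 2-fold lower. With DESeq2 size factors ADAM10 (-0.999) was as well. Over all genes, those at least 2-fold lower went from 1413 to 982 with TMM factors.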

How the data were processed

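RNA sequencing of DU145 cells (3 shCON and 3 shPAX6 libraries) and LNCaP cells (1 parental and 1 LNCaP-ENZ library) was analysed from processed tables, grouped by the sample labels. The 6 ATAC-seq samples were not used here. The methods give alignment to GRCh37 with HISAT2, quantification with StringTie and testing with DESeq2, while the labels describe 2 library kits and also list STAR. The methods state 3 replicates per line, but the LNCaP table holds 1 library per arm. The LNCaP table deposited by the authors holds raw counts of each gene, and TPM that equals the count over gene length, rescaled. For DU145 the table does not name its unit, and the deposited values were taken as FPKM. The low values of 239 genes showed no shared step between libraries (at most 5.02% of ratios in 1 bin), so reads were not recovered and depth is unknown.

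DU145 values were tested on log2(FPKM + 0.1) with limma 3.58.1 (trend, two-sided, Benjamini-Hochberg) in R 4.3.3, over the 13574 features that averaged 0.5 FPKM or more, and a fold change on that scale understates the change of low genes. LNCaP ratios are of CPM + 0.1 over library totals, with 95% Clopper-Pearson intervals that cover counting error only, and calls are at least 2-fold with a mean of at least 1 CPM. The limma fit and the LNCaP intervals were tested on simulated data. Alternatives were pseudocounts of 1 and 0.01, other filters, quantile normalization, median alignment, no trend, GC correction by loess (span 0.5), the replicate number as a block, each library left out, and for LNCaP TMM factors (edgeR 4.0.16), DESeq2 1.42.0 size factors, totals without the 10 most counted genes, and TPM.

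The genes, the family and pathway lists and the tests were chosen with earlier results of these data known. All 10 genes were named, other family members by their level, pathway genes by the 3 greatest differences each way (in LNCaP among those with a mean CPM of 5 or more, with FYN and SH2D3C added after their values were seen), and markers as a summary. Promoter sequences come from RefSeq (GRCh38.p14), whose build differs from that of the tables.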

Additional observations from a re-analysis of the deposited data

How the results depend on the processing

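The directions of EPHB3, EPHB4, EFNA1 and EFNB1 in DU145 held in all alternatives in which they were tested (14 for EPHB3, 15 for the others), and those of EPHA2 and EPHB2 turned in 3 of 15 each. EPHB3 ranged from 0.54 to 1.40, with adjusted p from 0.043 to 0.45 (limma). EPHB4 ranged from -0.61 to -0.19, EFNA1 from -0.51 to -0.18 and EFNB1 from -0.70 to -0.28. Members called numbered 0 in every alternative except GC correction, where 1, EPHB3, was. All features called numbered 163, and 108 without a filter, 100 with medians aligned and 236 with quantile normalization or with a pseudocount of 1. Leaving out 1 library gave 0 to 920 calls, 920 without shPAX6 library 1 and 903 without library 2, and 0, 5, 0 and 10 without shCON library 1, 2 or 3 or shPAX6 library 3. These fits hold fewer libraries, and the cause was not tested. The share of lower calls was 85.3%, and 68.6% with quantile normalization, 72% with medians aligned and 55% with GC corrected (222 calls). Deviations from the group means correlated at -0.166, -0.366 and 0.0519 between shCON and shPAX6 libraries of the same number. Within a group of 3 such deviations depend on each other, so they cannot show whether replicate numbers mark paired samples. With the replicate block 0 features were called and 1568 had an unadjusted p under 0.05 (limma).

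In LNCaP the 1684 genes at least 2-fold apart became 1054 with a pseudocount of 1, 874 with a minimum mean of 5 CPM and 6120 without a filter. The 2 members became 1 with a pseudocount of 1, with DESeq2 size factors, with the median set to 0 and with the higher minimum of 5 CPM, and EPHB6 ranged from -1.22 to -0.74. The share of lower genes was 83.9%, and 71.1% with TMM, 67.8% with DESeq2 size factors, 69.5% with the median set to 0 and 65.8% without a filter. Low FPKM, unknown depth in DU145 and single libraries in LNCaP limit all of these values.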

Other observations

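EFNA4, EFNA3 and EFNA1 are neighbours on chromosome 1 and lie on the plus strand between 155036213 and 155107386 (GRCh37). In LNCaP the log2 ratio was 0.06 for EFNA4, 0.72 for EFNA3 and -0.24 for EFNA1. In DU145 the log2 fold changes were -0.07, -0.25 and -0.44, with adjusted p of 0.90, 0.47 and 0.15 (limma). With GC corrected they were 0.25, 0.11 and -0.18, so EFNA4 and EFNA3 changed direction. A read-through transcript is annotated over EFNA4 and EFNA3, so reads could be split between them.

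The receptor EPHB4 and its ligand EFNB2 stood in different proportion in every group. In FPKM, EPHB4 was 75.8, 104 and 117 times EFNB2 in shCON libraries 1 to 3 and 53.5, 25.4 and 44.3 times in shPAX6 libraries 1 to 3, so the groups did not overlap. In TPM it was 11.6 times in parental LNCaP and 4.35 times in LNCaP-ENZ cells. EFNB2 was under 1 FPKM in every DU145 library, and its own shCON and shPAX6 values overlapped. Across genes in DU145, log2 fold changes were lower at higher GC content of the transcript (Spearman's correlation = -0.36). The EPHB4 transcript has a higher GC content than the EFNB2 transcript. With GC corrected, the EPHB4 log2 fold change went from -0.54 to -0.19. The ratios were not recomputed with GC corrected, so the part of GC in them was not tested. They are given as values, without a test or a comparison with other gene pairs.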
